A study of Mus musculus with 20 samples.

Results

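The 10 genes studied here serve antigen presentation by the major histocompatibility complex (MHC) and were followed through mouse embryonic development. They were B2m, H2-K1, H2-D1, H2-Aa, H2-Ab1, H2-Eb1, Cd74, Tap1, Tap2 and Psmb8, named from their role and read from every probe set annotated with one of these symbols alone. Together they had 31 such probe sets and are 10 of the 18194 genes with a single-symbol probe set on the Affymetrix Mouse Genome 430 2.0 array, an expression microarray on which a probe set is a group of short oligonucleotides for a transcript. All samples were whole embryos without the amnion from wild type C57BL/6 mice, a common inbred strain, kept specific-pathogen free, of mixed sex and with no treatment. Each of the embryonic days E7.5 and E8.5 had 3 arrays, as did E9.5 and E10.5; E12.5 and E14.5 had 2 arrays each, as did E16.5 and E18.5, which makes 20 arrays in all. Each array held RNA pooled from several embryos, and the number pooled is not given in the sources used here. The submitters describe the arrays of a stage as biological replicates.

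MHC class I molecules carry peptides made in the cytosol to the cell surface, where cytotoxic T cells read them. H2-K1 and H2-D1 encode classical class I heavy chains and B2m their light chain, beta-2-microglobulin. The immunoproteasome subunit Psmb8 cuts proteins into peptides suited to class I, and the transporter subunits Tap1 and Tap2 pump those peptides into the endoplasmic reticulum. Class II molecules show peptides from endocytosed proteins to helper T cells, mainly on dendritic cells, B cells, macrophages and thymic epithelium: H2-Aa encodes the alpha chain and H2-Ab1 the beta chain of I-A, H2-Eb1 encodes the beta chain of I-E, and Cd74 encodes the invariant chain that guides class II to endosomes. C57BL/6 mice carry no surface I-E because their I-E alpha gene is defective, while H2-Eb1 is still transcribed. Class I genes are transcribed in most adult cell types, and interferons raise both classes. H2-K1, Tap1, Psmb8, Tap2, H2-Ab1, H2-Aa, H2-Eb1 and H2-D1 lie in that order on mouse chromosome 17 in the GRCm38.p6 gene table. B2m is on chromosome 2.

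Promoter sequences of the chain genes are shown because the class I and class II chains are known for shared promoter elements. RefSeq promoter windows of build GRCm38.p6, 250 bases before to 50 after an annotated transcript start, were matched for 7 of the 10 genes. Printed 5′ to 3′ along the gene, with searched motifs in capitals, the windows of the light chain, both class I heavy chains, the I-A alpha chain and the I-E beta chain are given here; H2-K1 has more than one annotated start, and that of the window at chr17:34000298-34000597 (minus strand) is shown. The others are at chr2:122147437-122147736 (plus) for B2m, chr17:35262844-35263143 (plus) for H2-D1, chr17:34287774-34288073 (minus) for H2-Aa and chr17:34305617-34305916 (plus) for H2-Eb1.
B2m: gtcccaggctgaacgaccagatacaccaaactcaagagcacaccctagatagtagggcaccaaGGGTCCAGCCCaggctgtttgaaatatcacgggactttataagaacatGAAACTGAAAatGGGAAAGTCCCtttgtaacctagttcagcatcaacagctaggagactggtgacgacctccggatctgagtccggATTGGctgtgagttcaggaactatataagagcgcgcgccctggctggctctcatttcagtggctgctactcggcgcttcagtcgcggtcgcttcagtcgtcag
H2-K1: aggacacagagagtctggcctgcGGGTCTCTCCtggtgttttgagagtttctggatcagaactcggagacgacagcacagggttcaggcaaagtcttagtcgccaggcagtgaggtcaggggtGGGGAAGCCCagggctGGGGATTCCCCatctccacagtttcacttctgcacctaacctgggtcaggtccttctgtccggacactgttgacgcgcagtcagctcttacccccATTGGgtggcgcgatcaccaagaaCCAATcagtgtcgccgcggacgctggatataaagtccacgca
H2-D1: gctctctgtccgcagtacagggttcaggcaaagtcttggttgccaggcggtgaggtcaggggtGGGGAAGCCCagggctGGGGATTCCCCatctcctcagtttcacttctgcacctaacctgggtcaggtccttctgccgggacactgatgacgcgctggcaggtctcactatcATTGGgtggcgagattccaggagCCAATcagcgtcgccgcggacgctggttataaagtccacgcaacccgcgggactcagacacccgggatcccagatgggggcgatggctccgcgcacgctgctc
H2-Aa: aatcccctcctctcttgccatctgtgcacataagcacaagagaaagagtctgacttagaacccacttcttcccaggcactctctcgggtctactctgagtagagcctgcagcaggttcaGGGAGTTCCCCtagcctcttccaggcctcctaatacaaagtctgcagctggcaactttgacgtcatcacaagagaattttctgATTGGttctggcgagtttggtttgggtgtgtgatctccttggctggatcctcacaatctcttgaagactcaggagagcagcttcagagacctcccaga
H2-Eb1: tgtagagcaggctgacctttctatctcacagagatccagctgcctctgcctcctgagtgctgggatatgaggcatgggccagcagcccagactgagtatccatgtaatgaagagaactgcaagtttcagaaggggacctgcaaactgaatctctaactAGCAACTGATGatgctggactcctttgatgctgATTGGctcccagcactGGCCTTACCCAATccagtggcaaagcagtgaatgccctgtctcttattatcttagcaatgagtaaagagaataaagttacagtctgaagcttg

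A set of 4 motifs was searched on both strands. The CCAAT box (CCAAT, or ATTGG on the other strand) is the element bound by NF-Y and was in 6 of the 7 genes' windows, against 37.4% of all 32851 promoter windows of that length. A loose kappa-B pattern (GGGNNNNNCC) was also in 6 of 7 and in 50.8% of all windows; its matches overlap one another, so that one capital run can hold several. H2-K1 and H2-D1 share the kappa-B letters GGGGATTCCC, at position -111 from the printed start in H2-K1 and -171 in H2-D1. The core of the interferon-stimulated response element (GAAANNGAAA), present in 3.44% of all windows, was matched only in B2m, as GAAACTGAAA at position -139. An X box pattern (AGNNACNGATG), present in 0.968% of all windows, was matched only in H2-Eb1, as AGCAACTGATG at position -92, upstream of its CCAAT boxes at -59 and -35. None of the 4 motifs was matched in the Psmb8 window. Only these fixed patterns were searched, so a window without a match may still hold a variant of the element.

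The measurement is the MAS5 signal, a linear brightness value per probe set that is not a transcript count, so signals are compared between stages of a probe set and not between genes. All arrays share a trimmed mean of 500. The arrays fell into a set of 12 (E7.5 to E10.5) and a set of 8 (E12.5 to E18.5) with different array medians, 67.2 to 91.1 in the earlier set and 156 to 177.6 in the later, and no stage has arrays in both; the array medians are the dotted lines in the plot of signals by stage. Long comparisons were therefore made within a set: E10.5 against E7.5 and E18.5 against E12.5. A gene was called as risen or fallen when its log2(signal + 25.9) differed at least 2-fold with a Benjamini-Hochberg adjusted p below 0.05 in limma over 14045 genes. Each gene is represented by its probe set with the highest mean, and 18 of the 31 probe sets exceeded the array median on at least 2 arrays. The remaining 13 did not, 5 of them for H2-D1 and 3 for Tap1. H2-Aa passed this filter only with E16.5 and E18.5 arrays counted and Psmb8 only through E18.5 arrays.

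**Figure D1:**
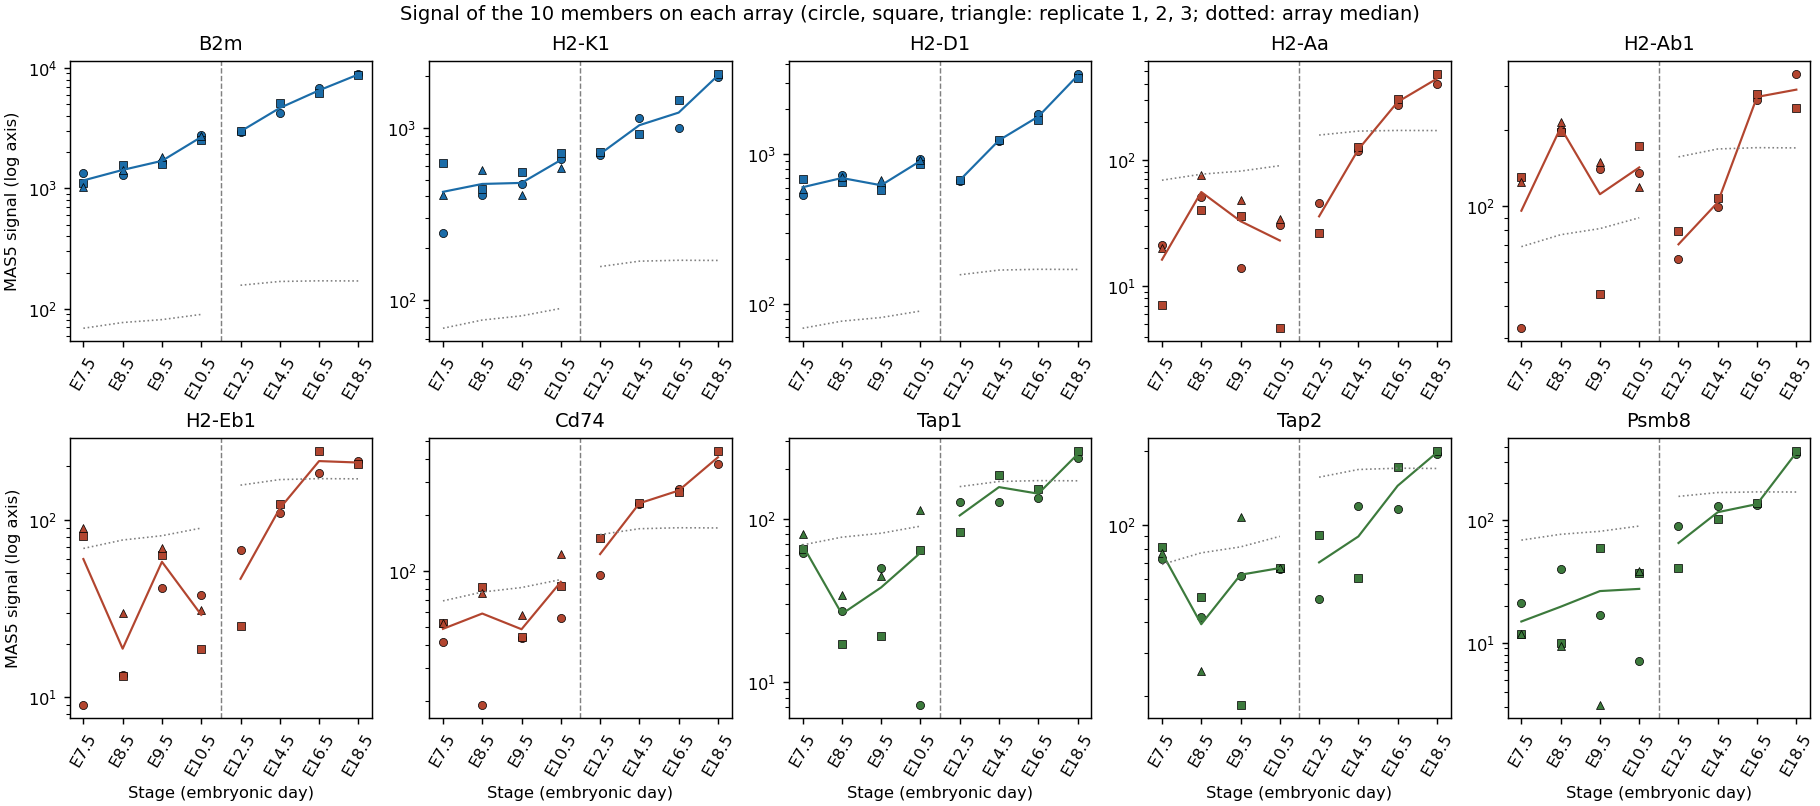
MAS5 signal (log axis) of the 10 genes against embryonic day, with a marker per array, a line through the stage means, a dashed line between the 2 array sets and the array median dotted. B2m, H2-K1 and H2-D1 lie above the array median on all 20 arrays, while H2-Aa passes it only at E16.5 and E18.5 and Psmb8 only at E18.5.

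From E12.5 to E18.5 the embryo's antigen presentation transcripts rose almost as a group. Of the 10 genes, 9 rose: 3 of 3 class I chains, 4 of 4 class II genes and 2 of 3 genes of peptide supply, with Tap1 the exception. The median log2 change of the 10 was 1.64, against a median of -0.09 over all genes tested, of which 15.2% rose. In all 10 genes both E18.5 arrays were above both E12.5 arrays. The share of all genes separated in this way was not computed, so this count has no reference to be judged against. H2-Aa and Psmb8 passed the filter only where they were high and so had to differ; of the other 8 genes 7 rose. With no filter on low signals the count was again 9 of 10. In whole embryos, more cells of a type and more RNA per cell cannot be told apart.

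Among the class I chains, B2m had signals of 8934 and 8712 at E18.5, against 2938 and 3002 at E12.5. H2-D1 had 3450.0 and 3252 at E18.5, against 668 and 674 at E12.5. H2-K1 had 1963 and 2052 at E18.5, against 691 and 719 at E12.5. The replicate arrays of a stage lay close together in all 3 genes and the stages did not overlap. H2-D1 rose most of the 3, by a log2 change of 2.28 ± 0.11 (SE; n = 2 arrays a stage), or 4.84-fold, with an adjusted p of 2.80e-12. For B2m the log2 change was 1.56 ± 0.12 (adjusted p = 1.76e-09), and for H2-K1 it was 1.48 ± 0.27 (adjusted p = 1.07e-04).

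Other probe sets of the class I genes moved the same way. In a fit over 25563 probe sets, 16 of the 18 probe sets of the 10 genes that passed the filter rose from E12.5 to E18.5, against 11.7% of all probe sets. Both passing H2-Aa probe sets, the Psmb8 one and a weak H2-D1 one passed only with E16.5 or E18.5 arrays counted. Their rise was thus favoured in advance, and the count without them was not computed. The other B2m probe set had a mean of 7149 at E18.5, against 2847 at E12.5, a log2 change of 1.31 ± 0.23. Another strong H2-K1 probe set averaged 2262 at E18.5, against 554 at E12.5, and its log2 change of 1.98 ± 0.12 was larger than that of the representing one. For H2-D1 the 4 probe sets that passed gave log2 changes from 1.18 to 2.55. Class I genes are near-identical over long stretches, 3 further probe sets are annotated to H2-K1 or H2-D1 together with another gene, and most probe sets of both genes are of the _x_at type, which may bind several transcripts. How far the 2 heavy chains' signals are separate was not tested. A probe set annotated to both H2-K1 and H2-D1 had 422 and 504 at E18.5, against 69.4 and 108 at E12.5.

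**Figure D2:**
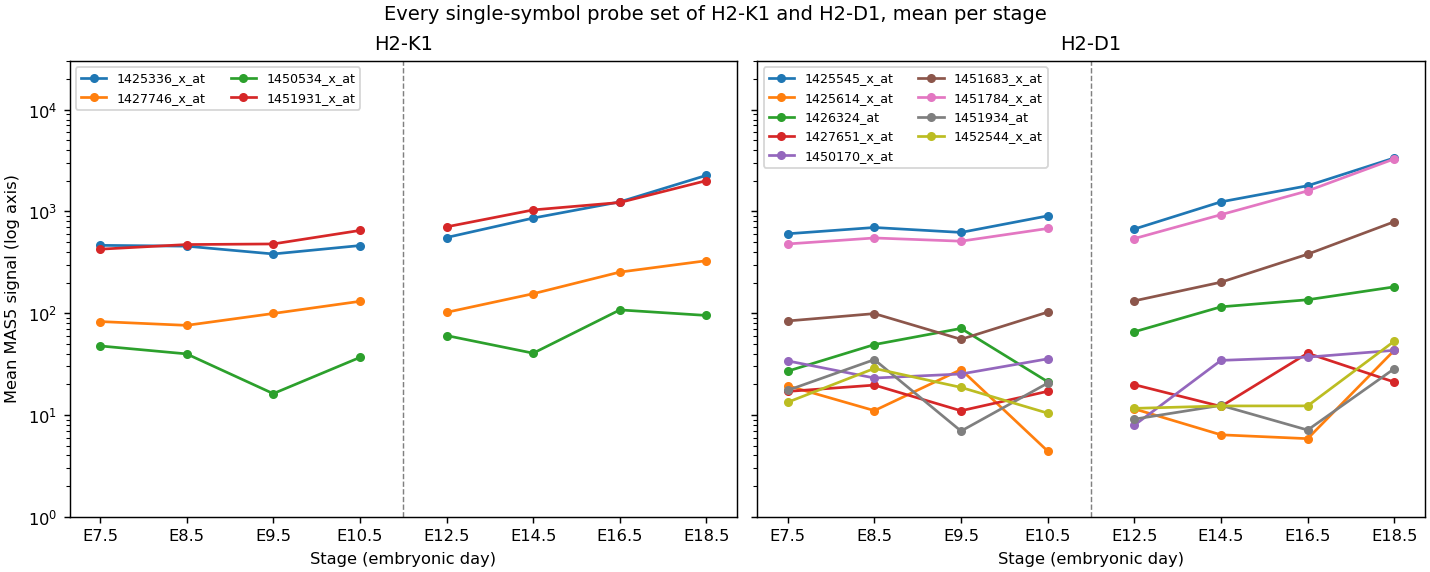
Mean MAS5 signal per stage (log axis) of all 4 single-symbol probe sets of H2-K1 (left) and all 9 of H2-D1 (right), with a dashed line between the array sets. From E12.5 on, the stronger probe sets of both genes climb together, whereas 5 probe sets of H2-D1 stay low at nearly every stage.

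On their representing probe sets the class II chains were low at E12.5 and above the array median at E18.5. H2-Aa had 398 and 479 at E18.5, against 45.3 and 26.1 at E12.5. H2-Ab1 had 336 and 245 at E18.5, against 61.3 and 79.6 at E12.5. All 4 of these E12.5 signals lay below their array's median, and all 4 at E18.5 above it. The other probe sets of both genes were weaker, and at E18.5 only 1 of them, for H2-Aa, exceeded the array median, on 1 array. H2-Aa rose by 2.93 ± 0.37 on the log2 scale (adjusted p = 1.46e-06), the largest change among the 10 genes, and since the pseudocount damps low signals this is an understatement of the ratio of the signals. H2-Ab1 rose by 1.71 ± 0.41 (adjusted p = 0.00156), but its other probe set that passed the filter, at 115 at E18.5 against 48.8 at E12.5, had a log2 change of 0.92 ± 0.32 and was not called.

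H2-Eb1 had 213 and 208 at E18.5, against 67.6 and 25.3 at E12.5. Cd74, the invariant chain, had 375 and 443 at E18.5, against 95.6 and 151 at E12.5. The 2 stages were apart in both genes, with a wide gap between the E12.5 arrays. H2-Eb1 rose by 1.77 ± 0.45 on the log2 scale (adjusted p = 0.0024), and Cd74 by 1.57 ± 0.35 (adjusted p = 9.04e-04). Without E12.5 replicate 2 the change of H2-Eb1 was 1.34 with an adjusted p of 0.0514, and the call ended.

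For peptide supply, Psmb8 had 346 and 370.0 at E18.5, against 89.8 and 40.9 at E12.5. Tap1 had 236 and 260.1 at E18.5, against 127 and 82.4 at E12.5, and Tap2 had 195 and 201 at E18.5, against 49.6 and 91.0 at E12.5. None of the 3 genes overlapped between the stages, although the 2 arrays of E12.5 lay far apart in each. Psmb8 rose by 2.13 ± 0.46 on the log2 scale (adjusted p = 6.10e-04) and Tap2 by 1.25 ± 0.40 (adjusted p = 0.0118). The Tap2 call ended without E12.5 replicate 1, where the change was 0.94 (adjusted p = 0.129), and without E18.5 replicate 2, where it was 1.23 (adjusted p = 0.0555). Tap1 had a log2 change of 1.09 ± 0.45 with an adjusted p of 0.0502, so it was not called in the fit of all 20 arrays, and its 95% interval ran from 0.14 to 2.04. When the 8 later arrays were fitted alone, Tap1 had the same change with an adjusted p of 0.00119, and all 10 genes were called.

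**Figure D3:**
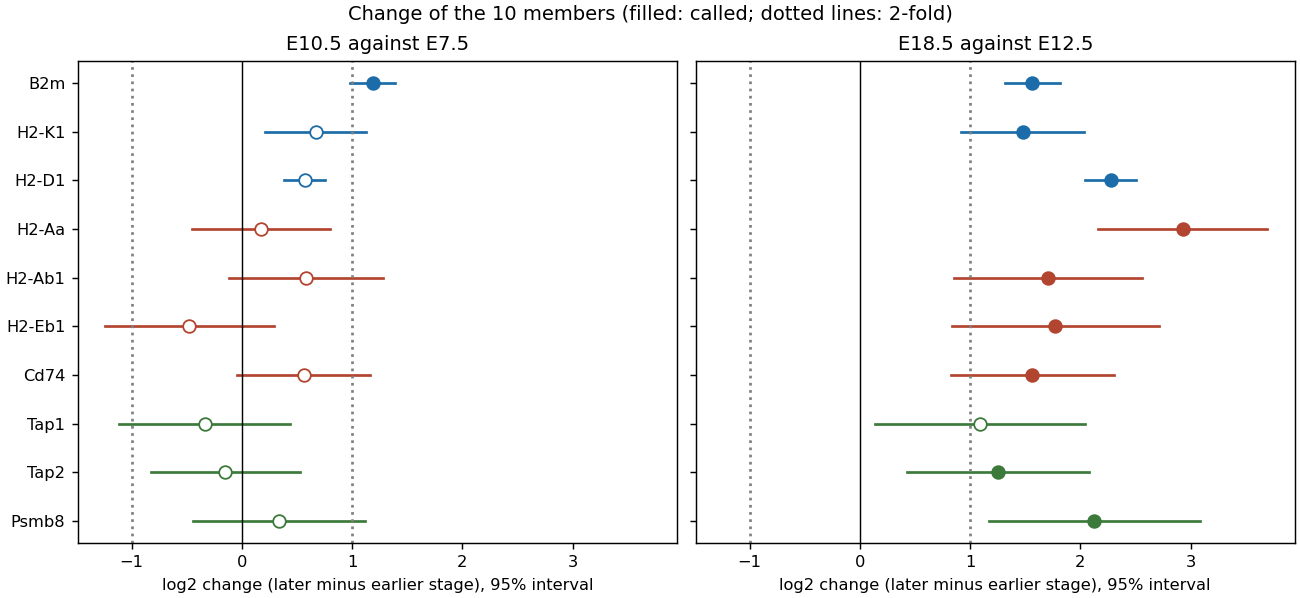
Log2 change of each gene with its 95% interval, E10.5 against E7.5 on the left and E18.5 against E12.5 on the right; filled points were called and dotted lines mark 2-fold. B2m alone is filled on the left, and all but Tap1 are filled on the right.

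From E7.5 to E10.5, B2m alone of the 10 genes rose, 1 of 10 against 16% of all genes tested. The median log2 change of the 10 was 0.45, against 0.11 over all genes. B2m had 2773, 2517 and 2716 at E10.5, against 1344, 1111 and 1036 at E7.5, with no overlap. Its log2 change was 1.19 ± 0.10 (n = 3 arrays a stage; adjusted p = 2.07e-09), and when the arrays were scaled by their 75th percentile it was 0.99 (adjusted p = 3.67e-08), just under 2-fold. Set against the median of all genes the change was 1.08, and 1.05 under that scaling.

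Neither heavy chain reached the 2-fold limit. H2-D1 had 936, 863 and 911 at E10.5, against 537, 681 and 591 at E7.5, without overlap, and its log2 change of 0.57 ± 0.09 (adjusted p = 1.77e-05) lay below the 2-fold limit. H2-K1 had 655, 714 and 581 at E10.5, against 246, 623 and 407 at E7.5, which overlap, and its change was 0.67 ± 0.22 (adjusted p = 0.0127). The other strong H2-K1 probe set averaged 462 at E10.5, against 464 at E7.5, a log2 change of 0.00 ± 0.10, so that the probe sets of H2-K1 disagree over these stages. Among the 18 probe sets of the 10 genes that passed, 2 rose, against 15.1% of all probe sets.

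H2-Ab1 exceeded the array median on 10 of the 12 arrays up to E10.5, and the other class II and peptide supply signals were near the median or below it there. H2-Aa had 30.6, 4.65 and 33.7 at E10.5, against 21.4, 7.08 and 20.2 at E7.5, and Psmb8 had 7.13, 36.9 and 38.7 at E10.5, against 21.2, 11.7 and 11.8 at E7.5. Neither gene exceeded the array median on any of the 12 arrays up to E10.5, so changes of low abundance could not be measured there. The log2 changes from E7.5 to E10.5 of the 7 genes of class II and peptide supply ran from -0.48 for H2-Eb1 to 0.59 for H2-Ab1, and none was called. H2-Eb1 rests on a single E7.5 array: it had 8.996, 81.5 and 89.7 at E7.5, and without replicate 1 it was called as fallen at E10.5, by a log2 change of -1.03 (adjusted p = 0.006).

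H2-Ab1 had 135, 173 and 119 at E10.5, against 32.7, 131 and 124 at E7.5, and Cd74 had 56.0, 82.8 and 123 at E10.5, against 41.3, 52.5 and 52.5 at E7.5. The H2-Ab1 arrays overlapped between the stages and the Cd74 arrays did not, and the log2 changes were 0.59 ± 0.33 (adjusted p = 0.144) for H2-Ab1 and 0.56 ± 0.29 (adjusted p = 0.103) for Cd74. Of the peptide transporter subunits, Tap2 had 66.2, 66.97 and 66.8 at E10.5, against 72.5, 81.5 and 76.7 at E7.5, and Tap1 had 7.20, 64.5 and 114 at E10.5, against 61.3, 64.9 and 80.1 at E7.5. The E10.5 arrays of Tap1 lay on both sides of its E7.5 arrays, while those of Tap2 lay just below them, with a log2 change of -0.15 ± 0.32 (adjusted p = 0.714).

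The class I gain was spread over the later steps rather than made at 1 of them. B2m averaged 2970 ± 45.4 at E12.5, 4651 ± 631 at E14.5, 6512 ± 446 at E16.5 and 8823 ± 157 at E18.5 (SD, n = 2). H2-D1 averaged 671 ± 4.02, 1242 ± 20.9, 1787 ± 119 and 3351 ± 140.1 at the same stages. For both genes each of these stages lay above the one before it without overlap. H2-D1 differed with an adjusted p of 3.19e-05 at E14.5 against E12.5 (log2 change 0.86), 0.00435 at E16.5 against E14.5 (0.52) and 1.10e-05 at E18.5 against E16.5 (0.90), each below 2-fold. In the fit over probe sets, 2 of the other 3 H2-D1 probe sets that passed were called as risen in the last of these steps, with log2 changes of 1.00 (adjusted p = 0.0183) and 1.04 (adjusted p = 4.63e-04). H2-K1 averaged 1034 ± 154 at E14.5, 1224 ± 324 at E16.5 and 2007 ± 63.3 at E18.5, and the E14.5 and E16.5 arrays overlapped.

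Among single steps of the later set, the called changes were few. Of the 10 genes H2-Aa rose at E14.5 against E12.5, 1 of 10 where 3.28% of all genes rose: it had 117 and 125 at E14.5, against 45.3 and 26.1 at E12.5, a log2 change of 1.27 ± 0.37 (adjusted p = 0.0304). Leaving out either array of E14.5 or of E12.5 ended that call, with adjusted p-values of 0.0700 to 0.2495. No gene of the 10 was called at E16.5 against E14.5, where 3.6% of all genes rose. An unadjusted p below 0.05 in limma was found for 4 of the 10, and the share of all genes at that threshold was not computed. H2-Aa went on to 271 and 303 at E16.5, H2-Ab1 had 265 and 279 at E16.5 against 99.1 and 108 at E14.5, and the adjusted p-values were 0.0667 and 0.0699. The other H2-Aa probe set that passed was called at this step in the fit over probe sets, with a mean of 158 at E16.5, against 39.2 at E14.5 (log2 change 1.495, adjusted p = 0.0269). That probe set passed the filter only through E16.5 and E18.5 arrays, where it was high, so its call was favoured in advance. At E18.5 against E16.5 none was called either, where 3.52% of all genes rose. There 4 of 10 had an unadjusted p below 0.05 in limma, again without a share of all genes to set beside it. Psmb8, with 346 and 370.0 at E18.5 against 132 and 139 at E16.5, had the largest change of that step, 1.25 ± 0.46 (adjusted p = 0.0727). H2-Eb1 averaged 210.5 ± 4.17 at E18.5 and 215 ± 43.5 at E16.5, with overlapping arrays.

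Cd74, Psmb8 and the transporter subunits were not called at any single later step. Cd74 had 229 and 233 at E14.5, 275 and 267 at E16.5 and 375 and 443 at E18.5, and each of these stages lay above the one before it. Psmb8 had 132 and 102 at E14.5 and 132 and 139 at E16.5. Tap1 had 126 and 186 at E14.5 and 133 and 151 at E16.5, and Tap2 had 119 and 60.5 at E14.5 and 116 and 173 at E16.5. The E14.5 and E16.5 arrays overlapped for both transporter subunits, and E18.5 lay above E16.5 in each of the 4 genes without being called.

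Single steps up to E10.5 showed 1 call. H2-Ab1 had 201, 197 and 217 at E8.5, against 32.7, 131 and 124 at E7.5, and rose by 1.05 ± 0.33 on the log2 scale (adjusted p = 0.017), 1 of 10 genes against 6.27% of all genes. It rests on E7.5 replicate 1, without which the change was 0.59 (adjusted p = 0.130). H2-Aa had 50.6, 40.2 and 76.0 at E8.5, a log2 change of 0.95 that passed 2-fold when E7.5 replicate 1, E7.5 replicate 3 or E8.5 replicate 2 was left out (1.04, 1.02 and 1.09), and H2-Eb1 was called as fallen without E7.5 replicate 1 (-1.34). No gene was called at E9.5 against E8.5, where 2.48% of all genes rose, or at E10.5 against E9.5, where 3.15% of all genes rose. At an unadjusted p below 0.05 in limma, in either direction, were 3 of 10 genes and 2 of 10. The share of all genes at that threshold was not computed. In the last of these steps B2m, with 2773, 2517 and 2716 at E10.5 against 1654, 1587 and 1834 at E9.5, had a log2 change of 0.65 ± 0.10 (adjusted p = 8.51e-05), and H2-D1 of 0.52 ± 0.09 (adjusted p = 3.41e-04). The H2-D1 probe sets disagree here: one that is low at these stages averaged 21.2 at E10.5, against 70.8 at E9.5, and was called as fallen in the fit over probe sets (log2 change -1.07, adjusted p = 0.00671).

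Both transporter subunits were lower at E8.5 on every array. Tap1 had 27.1, 17.1 and 34.0 at E8.5, against 61.3, 64.9 and 80.1 at E7.5, a log2 change of -0.87 ± 0.37 (adjusted p = 0.0711). Tap2 had 42.0, 50.5 and 25.3 at E8.5, against 72.5, 81.5 and 76.7 at E7.5, a log2 change of -0.68 ± 0.32 (adjusted p = 0.110). Neither passed the threshold.

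At E12.5 against E10.5 stage and array set cannot be told apart. None of the 10 genes was called, against 10.6% of all genes that rose. An unadjusted p below 0.05 in limma was found for 2 of 10, and the share of all genes at that threshold was not computed. H2-D1 had 668 and 674 at E12.5, against 936, 863 and 911 at E10.5, a log2 change of -0.41 ± 0.10 (adjusted p = 0.00221), below 2-fold. Its probe sets disagree at this step too: the same low one, at 65.6 at E12.5 against 21.2 at E10.5, was called as risen (log2 change 1.0035, adjusted p = 0.00698), and the other 2 had changes of -0.32 and 0.34, neither called. Tap1 passed as risen without E10.5 replicate 3, the highest of that stage (log2 change 1.23, adjusted p = 0.0153).

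The change from E12.5 to E18.5 was set against that from E7.5 to E10.5 in a single contrast, added after the data had been seen. The contrast spans 6 days against 3 and both array sets, so that age, span and array set cannot be told apart in it. Of the 10 genes, 6 changed more in the later span, against 18% of all genes tested. H2-Aa and Psmb8 are among the 6 and passed the filter on low signals only with E16.5 and E18.5 arrays counted. A larger later change was thus favoured in advance for these genes. The rest of the 6 were H2-D1, H2-Eb1, Tap1 and Tap2. The differences in log2 change were 2.76 ± 0.48 for H2-Aa (adjusted p = 4.77e-05), 2.25 ± 0.58 for H2-Eb1 (0.00225) and 1.71 ± 0.14 for H2-D1 (2.96e-09), with Psmb8, Tap1 and Tap2 between 1.40 and 1.79. For B2m the difference was 0.38 ± 0.15 (adjusted p = 0.0416), below 2-fold, and H2-K1, H2-Ab1 and Cd74, at 0.81, 1.12 and 1.00, were not called. The count ranged from 4 to 8 when single arrays were left out.

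Among 9 other genes of class I peptide loading tested at E18.5 against E12.5, 5 rose and none fell, against 15.2% of all genes that rose, with a median log2 change of 1.14. Psmb9 and Tapbpl passed the filter on low signals only with E16.5 and E18.5 arrays counted and so had to differ; of the other 7 genes 3 rose, with a median of 0.33. Psmb9, another immunoproteasome subunit, averaged 257 ± 9.96 at E18.5, against 62.3 ± 1.62 at E12.5, and Psmb10, the third, 752 ± 25.3 at E18.5, against 326 ± 8.96 at E12.5. Tapbp, which holds class I at the peptide transporter, averaged 1308 ± 86.7 at E18.5, against 445 ± 41.2 at E12.5, a log2 change of 1.503 ± 0.165 (adjusted p = 2.55e-07). Its relative Tapbpl (1.34) and the peptide-trimming enzyme Erap1 (1.34) also rose. The general chaperones Calr and Canx had log2 changes of -0.02 each, and the disulfide isomerase Pdia3 of 0.14, none called. The 7 constitutive beta subunits of the proteasome, which Psmb8, Psmb9 and Psmb10 partly replace in the immunoproteasome, had a median change of -0.15, and none was called (1 of 7 at an unadjusted p below 0.05 in limma). At E10.5 against E7.5 none of the 9 loading genes was called in limma, with 4 at an unadjusted p below 0.05. Psmb10 then averaged 402 ± 17.4 at E10.5, against 776 ± 32.6 at E7.5.

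Probe sets of nonclassical class I and related genes may also bind transcripts of near-identical paralogs. Of these genes, 3 of 7 tested rose at E18.5 against E12.5, where 15.2% of all genes rose. They were H2-Q2 (561 ± 2.91 at E18.5, against 18.4 ± 0.01 at E12.5), H2-Q10, a class I gene of liver (1791 ± 72.0, against 299.99 ± 21.3), and Fcgrt, the heavy chain of the neonatal Fc receptor, which also pairs with B2m (4071 ± 446, against 431 ± 90.9). Their log2 changes were 3.73, 2.48 and 3.17. H2-Q2 passed the filter only with E16.5 and E18.5 arrays counted, as did the uncalled Mr1, and of the other 5 genes 2 rose. H2-T24 and Cd1d1, the lipid-presenting relative, rose at E10.5 against E7.5 (1.44 and 2.16), where 16% of all genes rose, and were not called later.

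Several endosomal genes of the class II route fell in the earlier span and rose in the later one. At E18.5 against E12.5, 4 of 6 tested rose, where 15.2% of all genes did. They were Ifi30 (1.81), Ctss (1.62), Lgmn (1.36) and Ctsl (1.21), a thiol reductase and proteases that cut antigens or the invariant chain. Ctss alone rose at E10.5 against E7.5 (3.08), and Lgmn, Ifi30 and Ctsl fell, with log2 changes of -4.03, -2.32 and -1.83. Over all genes, 16% rose and 7.49% fell between those stages. Lgmn averaged 524 ± 28.3 at E10.5, against 8984 ± 1019 at E7.5. These enzymes also act in general lysosomal turnover. H2-DMa, which loads peptide on class II, averaged 147 ± 6.64 at E18.5, against 116 ± 6.60 at E12.5, and was not called. H2-Ob, a class II-like chain of B cells, stayed under the 25th percentile of its array on every array.

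No transcript of the tested X box and CCAAT box factors or of Creb1 was called in either long comparison. They were the X box factors Rfx5, Rfxank and Rfxap, the CCAAT factor subunits Nfya, Nfyb and Nfyc, and the cAMP response factor Creb1. At E18.5 against E12.5 the median log2 change of the 7 was -0.66, and 5 of them were lower with an adjusted p below 0.05 and under the 2-fold limit. Nfyb averaged 764 ± 38.8 at E18.5, against 1533 ± 48.9 at E12.5, a log2 change of -0.98 ± 0.12 (adjusted p = 1.40e-06), and under quantile normalization 1 of the 7 was called as fallen. At E10.5 against E7.5, 2 of 7 had an unadjusted p below 0.05 in limma. The class II transactivator Ciita and the class I transactivator Nlrc5 did not pass the filter on low signals. Ciita averaged 45.3 ± 6.40 at E18.5 and 54.8 ± 4.31 at E12.5, and Nlrc5 averaged 100.4 ± 8.21 at E18.5 and 16.3 ± 16.4 at E12.5.

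Of 11 interferon-stimulated genes tested, which answer the cytokines that raise MHC transcription, 10 rose and none fell at E18.5 against E12.5, with a median log2 change of 2.13. Ifit1, Ifit3, Irf7, Oasl2, Gbp2 and Usp18 passed the filter on low signals only with E16.5 and E18.5 arrays counted and so had to differ. Of the other 5 genes 4 rose, with a median of 1.76, against 15.2% of all genes that rose. Rsad2, an antiviral enzyme, averaged 3543 ± 97.9 at E18.5, against 172 ± 9.81 at E12.5, a log2 change of 4.17 ± 0.38 (adjusted p = 2.12e-08). Usp18, which restrains interferon signalling, rose by 2.73 on the log2 scale, the membrane protein Ifitm3 by 2.48 and the transcription factor Irf7 by 2.40. None of the 11 rose at E10.5 against E7.5 and 2 fell, Bst2 (-3.07) and Oas1a (-1.56), where 16% of all genes rose and 7.49% fell. The summed signal of the 13 measured genes lay between 13022 and 13945 on the E18.5 arrays, against 2367 to 2448 on the E12.5 arrays.

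Genes of interferon and NF-kappa-B signalling itself rose in 3 of 12 at E18.5 against E12.5, where 15.2% of all genes rose: the receptor chains Ifnar2 (1.11) and Ifngr1 (1.06) and the transcription factor Irf9 (1.05). At E10.5 against E7.5 the 3 of 12 that rose, where 16% of all genes did, were Irf8 (1.67), Irf2 (1.34) and Ifngr2 (1.04). Counts of this size are near the share over all genes. None fell in either comparison. The NF-kappa-B subunit Rela had log2 changes of 0.02 in the later comparison and 0.07 in the earlier, neither called.

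**Figure D4:**
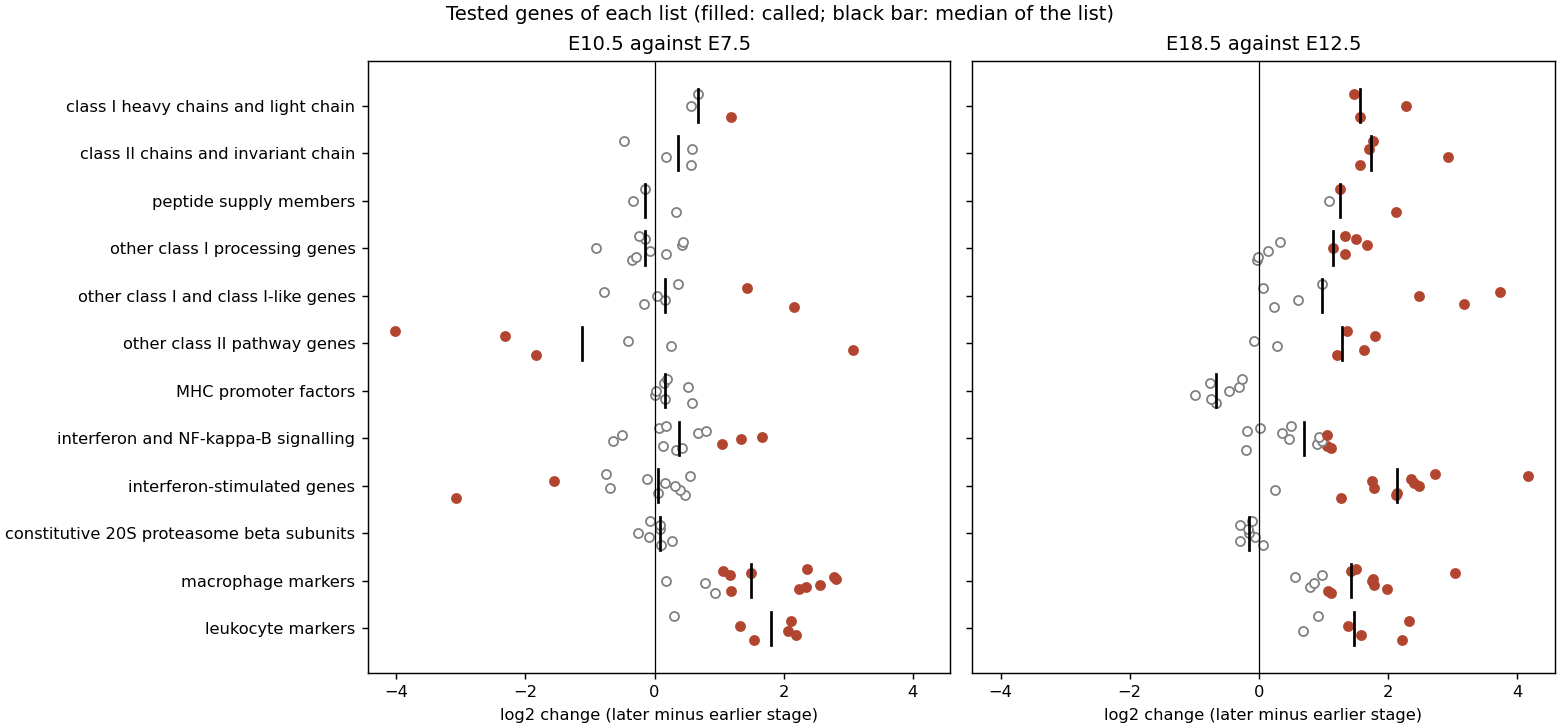
Log2 change of every tested gene in each group of pathway genes and cell type markers, E10.5 against E7.5 on the left and E18.5 against E12.5 on the right; filled dots were called and a black bar marks the median of a group. On the right the interferon-stimulated genes sit at a median of 2.13, while the proteasome beta subunits and promoter factors lie near or below 0.

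Markers of the cells that carry class II were read beside the 10 genes, and their counts stand against 15.2% of all genes that rose at E18.5 against E12.5 and 16% at E10.5 against E7.5. Of 13 macrophage markers, 9 rose and none fell at E18.5 against E12.5, and their summed signal lay between 17569 and 18241 at E18.5, against 4965 to 5088 at E12.5. Of the 13, Aif1 and Cd14 passed the filter only with E16.5 and E18.5 arrays counted, and of the other 11 markers 8 rose. Lyz2, the macrophage and granulocyte lysozyme, rose by 3.04 on the log2 scale, the complement genes C1qa and C1qc by 1.99 and 1.79, and the receptor gene Csf1r by 1.76. Of 6 markers of all leukocytes 4 rose, among them Ptprc, which encodes CD45 (2.33), with sums of 5235 to 5421 at E18.5, against 1895 to 1953 at E12.5. B cell markers rose in 3 of 3 tested, Blnk by 2.27 (summed signal of 7 measured 1004 to 1247 at E18.5, against 313 to 391 at E12.5). On both E18.5 arrays 4 of the 7 measured B cell markers lay below the array median. Pax5 alone of them was lower, averaging 84.2 at E18.5, against 98.6 at E12.5. For T cells 2 of 3 tested rose, Rag1 by 3.21 and Cd3d by 2.86 (summed signal of 8 measured 1219.8 to 1299 at E18.5, against 258 to 298 at E12.5), while Cd4 and Cd2 were under the array's 25th percentile at E18.5. Rag1 and Cd3d passed the filter only with E16.5 and E18.5 arrays counted and so had to differ, and the only other marker tested, Cd8a, was not called (log2 change 0.36). The part of these cell types in the later rise of the MHC genes was not tested.

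Dendritic cell markers were not called at E18.5 against E12.5. Only Zbtb46 and Batf3 of the 8 measured passed the filter, 1 of them at an unadjusted p below 0.05 in limma, and the sum of the 8 was 624 to 641 at E18.5, against 717 to 766 at E12.5. Flt3, Xcr1 and Ccr7 were under the array's 25th percentile on both E18.5 arrays, and none of the 8 was at 0. For thymic epithelium, 2 of 2 tested rose, Krt5 (2.55) and the chemokine Ccl25 (1.68). Krt5 is also a keratin of skin, and Aire, the regulator of medullary thymic epithelium, was under the 25th percentile at E18.5. Endothelial markers rose in 2 of 7, near the share over all genes: Cd34 (1.47) and Pecam1 (1.34).

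In the earlier comparison macrophage and general leukocyte markers rose, and no class II gene was called. Most class II signals were near the array median or below it there, so a missing call says little. At E10.5 against E7.5, 10 of 13 macrophage and 5 of 6 leukocyte markers rose and none fell, the macrophage sums lying between 2064 and 2907 at E10.5, against 299 to 520 at E7.5. Of 3 B cell markers tested none rose and Blnk fell, and of 3 T cell markers none was called. Of 2 dendritic cell markers Zbtb46 rose and Batf3 fell. Endothelial markers rose in 5 of 7 and thymic epithelium markers in 1 of 2, where 16% of all genes rose. How these cell types relate to the MHC signals was not tested. The summed signal of H2-Aa, H2-Ab1, H2-Eb1 and Cd74 was 259 to 307 at E10.5 and 104 to 287 at E7.5, which overlap. At E18.5 it was 1322 to 1375, against 270 to 282 at E12.5. Embryos of E7.5 also carried trophoblast transcripts. The summed trophoblast markers were 393 to 459 at E10.5, against 9038 to 13265 at E7.5. All 4 of 4 tested fell, where 7.49% of all genes did, and Ascl2 among them had passed the filter only with E7.5 arrays counted. Of 8 maternal decidua markers tested 4 rose and 4 fell, where 16% of all genes rose. Those that fell include Prl8a2, Adm and Htra1 (-4.01, -3.66 and -3.02), and those that rose include Hoxa10 (2.33). Prl8a2 averaged 956 at E7.5 and 1486 at E8.5, against 33.8 at E10.5. How much the extraembryonic or maternal cells contributed to the E7.5 and E8.5 signals of the MHC genes was not tested.

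Across the 20 arrays the 10 genes varied together to differing degrees. With the mean of each array set removed, Pearson's r over log2 signals ran from 0.16 for H2-Ab1 with Tap1 to 0.86 for B2m with H2-D1, with a median of 0.53 over the 45 pairs. These are descriptions over arrays that share stages and scaling. The other genes whose profile was closest to the class I mean were Krt5 (r = 0.97), Ccl6 (0.96), Sln (0.95) and Myoz2 (0.95). Closest to the class II mean were Slc47a1 (0.96), Fam25c (0.95), Serpina1c (0.95) and Pof1b (0.93), and closest to Psmb8, Tap1 and Tap2 were Parp12 (0.92), Phlda3 (0.92), Serpina11 (0.91) and Slc22a5 (0.88). Several of these belong to differentiated tissues, such as Sln and Myoz2 of muscle and Serpina1c of liver. Each of the 12 had a higher mean signal at E18.5 than at E12.5, which choosing them by likeness to rising profiles favoured in advance.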

How the data were processed

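RNA of whole embryos was hybridised to Affymetrix Mouse Genome 430 2.0 arrays, and per the labels' protocols the deposited intensity of each probe set is a MAS5 signal on a linear scale; the MAS5 version is not given in the sources used here. Every array has a 2% trimmed mean of 500. From these deposited values log2(signal + 25.9) was tested in limma 3.58.1 (R 4.3.3), with all 20 arrays in 1 fit, a mean per stage and 12 residual degrees of freedom. Genes above the array median on at least 2 arrays entered, each by its probe set of highest mean, 14045 of 18194, with Benjamini-Hochberg adjustment over all. Of 45101 probe sets, 34958 carried a single symbol in the platform annotation, 932 several and 9211 none, the 64 control probe sets being left out. P-values measure the spread between arrays of pooled embryos, and array number limits their precision. Counts at an unadjusted p below 0.05 take either direction, and no share of all genes at that threshold was computed. Replicate numbers were not treated as pairs, since same-numbered arrays of 2 stages correlated weakly around their stage means (-0.05 to 0.28). In comparisons up to E10.5, 3 or 4 of 6 arrays correlated best with the array of their own number.

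The 10 genes and all lists were chosen with earlier results of these data known. From each list the text names up to 4 called genes of largest change without overlap in each long comparison. Psmb10, Calr, Canx, Pdia3, H2-DMa, H2-Ob, Nfyb, Ciita, Nlrc5, Rela, Mr1, Ifit1, Ifit3, Oasl2, Gbp2, Aif1, Cd14, Cd8a, Aire, Flt3, Xcr1, Ccr7, Batf3, Zbtb46, Cd2, Cd4 and Pax5 were named after their values were seen. The fit was checked on simulated data.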

Additional observations from a re-analysis of the deposited data

How the results depend on the processing

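At E18.5 against E12.5 the count of the 10 genes that rose was 7 with the mean of all probe sets. It was 8 with quantile normalization or a pseudocount 4 times larger. Scaling by the 75th percentile, or the replicate number as a block, gave 10 of 10. A filter at the 75th percentile of the array tests fewer genes: only B2m, H2-K1 and H2-D1 passed it, and all 3 rose. Leaving out an array of a 2-array stage leaves 1 array, assumed to vary like the other stages. Of 1170 recomputed changes of single genes, 1090 kept their direction and side of the threshold, 17 lost a call, 19 gained one and 44 changed sign, none of these called. Low signals limit the class II and peptide supply genes up to E12.5. The cause of the shifts below was not tested.

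The count of the 10 that rose became 0 at E10.5 against E7.5 with scaling by the 75th percentile. At E8.5 against E7.5 it was 0 with quantile normalization, a pseudocount 4 times larger, the stricter filter or the mean of all probe sets, and 2 with a pseudocount 4 times smaller. At E14.5 against E12.5 it was 0 with either pseudocount, the stricter filter or the mean of probe sets, and 2 when only 1 array set was fitted. At E16.5 against E14.5 it was 1 with the replicate block and 2 with 1 array set, and at E18.5 against E16.5 it was 1 with quantile normalization or 1 array set. Quantile normalization called 1 gene as fallen at E8.5 against E7.5 and 1 at E12.5 against E10.5. The larger change in the later span held for 1 gene under the stricter filter, which only B2m, H2-K1 and H2-D1 passed. With arrays left out, 0 to 1 gene fell at E10.5 against E7.5, 1 to 2 rose and 0 to 1 fell at E8.5 against E7.5, 0 to 1 rose at E12.5 against E10.5 and 0 to 0 at E14.5 against E12.5.

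Over all genes, 2251 rose and 1052 fell at E10.5 against E7.5, against 1402 risen with the larger pseudocount, 1442 with the stricter filter, 1845 risen and 1441 fallen with the 75th percentile, and 1654 and 1123 with quantile normalization. At E18.5 against E12.5, 1270 rose with the stricter filter and 578 fell with the larger pseudocount. At E12.5 against E10.5 the split was 1484 risen and 284 fallen, 725 and 493 with quantile normalization, and 921 and 877 with the 75th percentile, which moved the median of all genes to -0.11, against 0.12.

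The sign turned with quantile normalization for Cd74 at E8.5 against E7.5 (-0.015), H2-K1 at E9.5 against E8.5 (-0.0037), and H2-K1 (-0.053), H2-Eb1 (-0.067), Cd74 (-0.23) and Tap2 (-0.50) at E12.5 against E10.5. It turned with the 75th percentile for H2-K1 at E9.5 against E8.5 (-0.0028), and B2m (-0.10), H2-K1 (-0.13) and Tap2 (-0.15) at E12.5 against E10.5. With the mean of probe sets it turned for H2-K1 at E8.5 against E7.5 (-0.013) and E9.5 against E8.5 (-0.15), and for H2-Ab1 at E10.5 against E9.5 (-0.31). With single arrays left out, the changes whose sign turned ranged as follows. At E10.5 against E7.5, H2-Aa ran from -0.0012 to 0.48 and Tap1 from -0.79 to 0.25. At E8.5 against E7.5, H2-K1 ran from -0.10 to 0.53, Cd74 from -0.14 to 0.49 and Psmb8 from -0.19 to 0.26. At E9.5 against E8.5, H2-K1 ran from -0.082 to 0.16, Cd74 from -0.50 to 0.13, Tap2 from -0.046 to 0.75 and Psmb8 from -0.31 to 0.47. At E10.5 against E9.5, H2-Aa ran from -0.53 to 0.034, H2-Ab1 from -0.033 to 0.62, Tap1 from -0.19 to 0.85, Tap2 from -0.23 to 0.57 and Psmb8 from -0.24 to 0.54. At E12.5 against E10.5, H2-Eb1 ran from -0.087 to 0.78 and Tap2 from -0.29 to 0.34. Tap2 ran from -0.12 to 0.63 at E14.5 against E12.5. At E16.5 against E14.5, H2-K1 ran from -0.047 to 0.49 and Tap1 from -0.33 to 0.14, and at E18.5 against E16.5, H2-Ab1 ran from -0.13 to 0.28 and H2-Eb1 from -0.20 to 0.17.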
